A study of Mus musculus and Rattus norvegicus with 32 samples.

Results

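The transforming growth factor beta (TGF-beta) system was followed through 9 genes whose symbols were looked up in each of the 4 gene count tables: the ligands Tgfb1, Tgfb2, Tgfb3 and Inhba, the receptors Tgfbr1, Tgfbr2 and Tgfbr3, and the latent-form binders Ltbp1 and Ltbp2. All 9 were found among the 55487 rows of each mouse table and in the rat table, and all 9 passed the filter on low counts in every table. The libraries came from hearts of C57BL/6 mice and from neonatal rat ventricular myocytes (NRVMs) of the Sprague Dawley strain, with 4 libraries in each of 8 groups. Hearts of 1-month-old mice were labelled METTL5-KO, a knockout line described earlier, or control littermate, and hearts of 3-month-old mice were labelled METTL5-cKO, a floxed Mettl5 allele deleted by a Cre under the cardiomyocyte promoter of Myh6, or control. A further set of METTL5-cKO and control hearts, whose age is also labelled 3 months, was taken 4 weeks after transverse aortic constriction (TAC), which loads the left ventricle with pressure. NRVMs, isolated on postnatal day 2 and pre-plated to remove fibroblasts, carried an adenovirus with human METTL5 (AdMETTL5) or with GFP (AdGFP), and both groups received 20 μM phenylephrine (PE), a hypertrophic agent, for 24 h. METTL5 is the methyltransferase that places m6A on 18S ribosomal RNA, and the comparisons ask how its loss or excess bears on the heart at rest and under stress. Whether the control mice carried Cre is not given in the sources used here.

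TGF-beta ligands are secreted in a latent form, in which the mature ligand is held by its own propeptide, and latent TGF-beta binding proteins tether that complex to the extracellular matrix until integrins, proteases or matrix proteins release it. The active ligand binds the type II receptor, which phosphorylates the type I receptor, and SMAD proteins carry the signal to the nucleus. The betaglycan co-receptor presents ligand, TGF-beta 2 in particular, to the type II receptor. In the heart the pathway is best known for driving fibroblasts to become matrix-producing myofibroblasts.

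Total counts ran from 14324700 to 21804907 per library, with at least 19899033 in every heart and at most 18085339 in the NRVMs. Libraries are numbered 1 to 4 within a group, and levels are given as CPM, counts relative to a library total that was scaled with TMM factors within a table. METTL5-cKO TAC library 4 stood closest to the TAC controls in the summed CPM of the cardiomyocyte, fibroblast, endothelial, macrophage and smooth muscle marker lists alike, so results after TAC are also given without it. Mettl5 counted over the whole gene did not separate the genotypes (mean 5.97 CPM ± 0.807 in METTL5-KO and 5.12 CPM ± 0.665 in controls at 1 month, 6.51 CPM ± 0.731 and 7.36 CPM ± 0.554 at 3 months, 6.59 CPM ± 0.764 and 6.75 CPM ± 0.752 after TAC, SD, n = 4). Since the count cannot be split into deleted and remaining exons, it does not check the genotype labels, and groups are named as labelled throughout. From its RNA-seq reads the paper reported the floxed exons as nearly absent in METTL5-cKO hearts. For the TAC samples the titles give cKO and the genotype field gives Mettl5-KO, and the titles were followed. In NRVMs, Mettl5 was at 21.2 CPM ± 1.76 with AdMETTL5 and at 17.0 CPM ± 0.774 with AdGFP (SD, n = 4), without overlap. The virus carried human METTL5 and reads were aligned to the rat genome, so these values do not measure the excess of METTL5. How many reads of the human sequence entered the rat count was not tested.

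The promoters of Tgfb2 and Ltbp2 are shown because these were the members with the largest difference between genotypes after TAC. Each line gives the 250 bases before the RefSeq start of the gene (GRCm38.p6), read 5′ to 3′ on the minus strand, from chr1:186705990-186706239 for Tgfb2 and from chr12:84876492-84876741 for Ltbp2. Capitals mark 4 motifs searched on both strands, namely the SMAD box CAGACA, the AP-1 site TGAGTCA, the GC box GGGCGG and the TATA box TATAAA, none of which overlap here.

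Tgfb2: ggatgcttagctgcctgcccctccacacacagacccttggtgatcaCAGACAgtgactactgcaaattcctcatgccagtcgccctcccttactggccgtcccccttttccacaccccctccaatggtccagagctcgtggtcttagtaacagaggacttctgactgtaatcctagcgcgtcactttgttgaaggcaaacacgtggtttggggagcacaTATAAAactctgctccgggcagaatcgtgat

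Ltbp2: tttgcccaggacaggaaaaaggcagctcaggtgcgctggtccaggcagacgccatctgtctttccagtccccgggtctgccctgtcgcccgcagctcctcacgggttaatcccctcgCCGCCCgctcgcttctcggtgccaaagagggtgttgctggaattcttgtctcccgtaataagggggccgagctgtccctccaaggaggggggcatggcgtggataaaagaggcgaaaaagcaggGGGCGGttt

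The Tgfb2 window held a SMAD box at position -204 and a TATA box at -31 from the start. The Ltbp2 window held GC boxes at -133 and -9, with no exact match to the letters of the SMAD box or the TATA box. The GENCODE start of Ltbp2, at 84876532, falls within this window, so that by GENCODE the box at -9 lies inside the gene. Variants of these letters were not searched. Over all 32851 promoter windows of this length, 17.1% held the SMAD box, 12.4% the TATA box, 32.7% the GC box and 4.46% the AP-1 site. RefSeq windows were found for 7 of the 9 members.

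On GRCm38 (GENCODE vM21), Tgfb2 (ENSMUSG00000039239) lies on chromosome 1 from 186622792 to 186705989 and Ltbp2 (ENSMUSG00000002020) on chromosome 12 from 84783212 to 84876532, both on the minus strand. Tgfb3 (ENSMUSG00000021253) lies on the same strand of chromosome 12 from 86056745 to 86079041, 1180 kb from Ltbp2. Reads of an antisense gene could enter some of these counts, because the strandedness of the counting is not given in the sources used here. Exons of D030025P21Rik on the opposite strand cover 9.34% of the Ltbp2 exon bases, and that gene was listed with 2 to 4 counts per library after TAC. How shared reads were assigned was not tested. The opposite-strand genes that share 2.14% of the Tgfb2 exon bases and 12.4% of those of Tgfb3 were listed at 0 in all TAC libraries.

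In the 24 heart libraries scaled together, Tgfb1, the most widely expressed of the 3 TGF-beta isoforms, had the highest level per length, at a mean of 5.77 CPM per kb of exon (range 4.06 to 9.12). Tgfbr2, the type II receptor, followed at 4.66 CPM per kb (3.51 to 7.36). Tgfb3 (3.58 CPM per kb), the co-receptor Tgfbr3 (3.51), Tgfb2 (2.42), Ltbp1 (2.21), the type I receptor Tgfbr1 (2.05) and Ltbp2 (1.30) came next, and Inhba, which encodes the activin A subunit, was lowest at 0.221 CPM per kb (0.0832 to 0.571). The ranges of all neighbours in this order overlapped. The order was not the same in each group: Ltbp2 was 8th in TAC controls at 0.322 CPM per kb ± 0.0982 and first in METTL5-cKO TAC hearts at 7.02 CPM per kb ± 4.53 (SD, n = 4), where Tgfb1, Tgfb2 and Tgfb3 lay at 6.39, 6.38 and 6.28 CPM per kb.

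Across the 6 heart groups on this common scale, the METTL5-cKO TAC group had the highest mean level of 6 members (Tgfb2, Tgfb3, Inhba, Tgfbr1, Tgfbr2 and Ltbp2). For Tgfb2, Tgfb3 and Ltbp2 its 4 libraries lay entirely above those of the next group. For Inhba, Tgfbr1 and Tgfbr2 they overlapped the next group, and among the remaining 5 groups every neighbour in the order overlapped for all 9 members. Tgfb1 was highest in the 1-month controls, at 35.2 CPM ± 8.20 (SD, n = 4), and lowest in the 3-month METTL5-cKO hearts, at 21.6 CPM ± 1.49. Ltbp1 and Tgfbr3 were highest in the 3-month METTL5-cKO hearts (27.6 CPM ± 6.11 and 29.2 CPM ± 3.46). Age, surgery and table cannot be told apart in this order, since each age or treatment was counted in its own table.

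**Figure D1:**
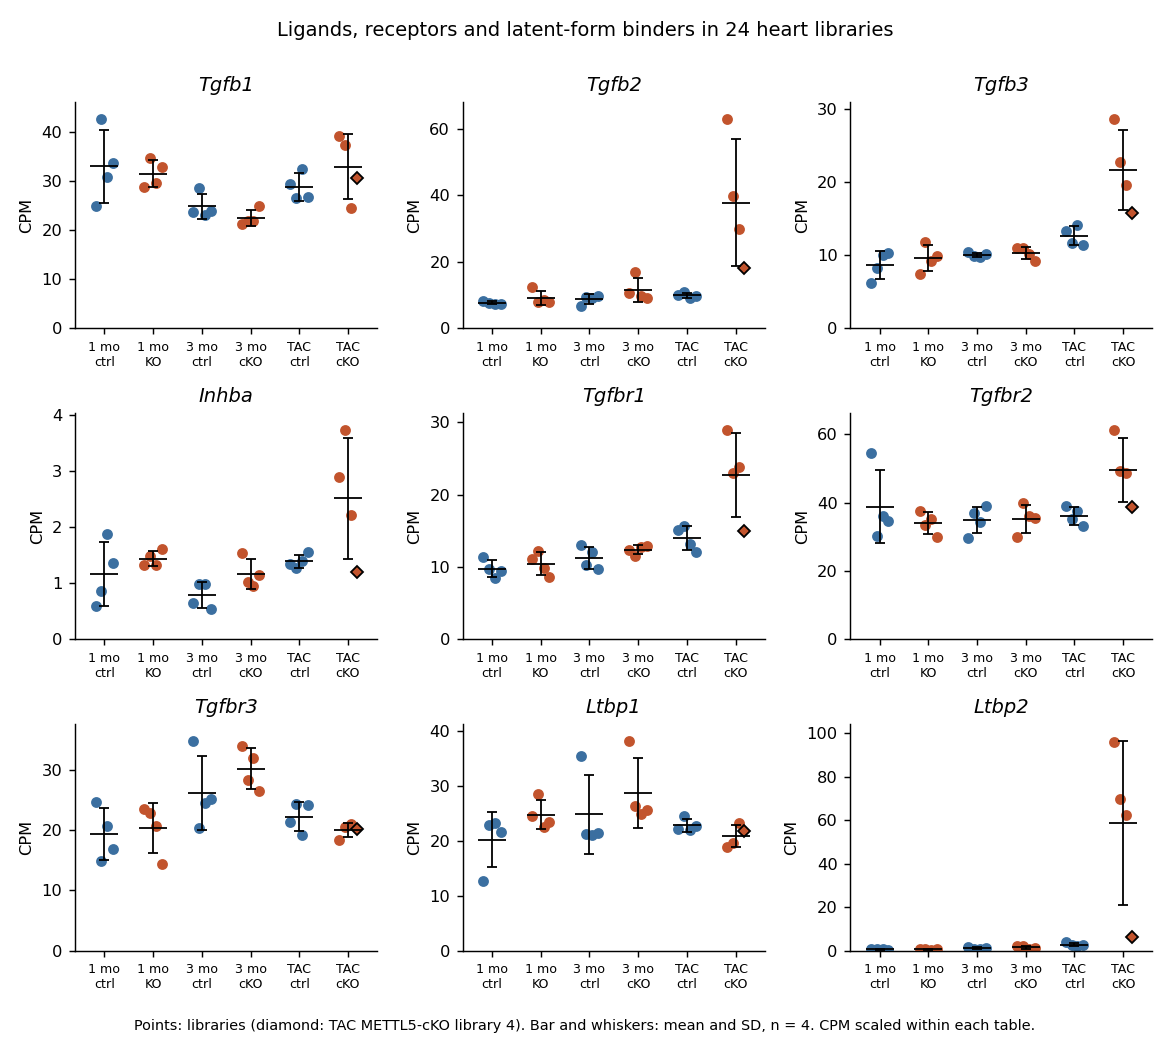
CPM (y axis, linear, from 0) of the 9 members in the 6 heart groups (x axis), scaled within each table. Points are libraries, black bars and whiskers are the mean and SD of 4 libraries, and the diamond is METTL5-cKO TAC library 4. Ltbp2 stays at or under 3.92 CPM in every group but METTL5-cKO TAC, where it ranges from 6.29 to 96.1 CPM.

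Hearts at rest were compared first. At 1 month, no member passed the threshold between METTL5-KO and control hearts (adjusted p under 0.05, edgeR quasi-likelihood test with Benjamini-Hochberg adjustment over 16329 genes). The background was 0.00612% of genes, that is 1 gene. None of the 9 reached an unadjusted p under 0.05, against 4.57% of all genes, DESeq2 also called 0, against 0.0421% of genes, and no member had groups without overlap, against 3.01% of genes.

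Among the ligands at 1 month, Tgfb2 was at 8.27, 7.60, 7.37 and 7.43 CPM in control libraries 1 to 4 and at 12.4, 7.96, 8.56 and 8.02 CPM in METTL5-KO libraries 1 to 4. Only METTL5-KO library 1 stood clear of the rest, and the log2 fold change was 0.27 (SE 0.155, adjusted p = 0.973). Inhba had a log2 fold change of 0.32 (SE 0.329), Tgfb3 of 0.15 (SE 0.193) and Tgfb1 of -0.07 (SE 0.158). The receptors lay between -0.19 (Tgfbr2, SE 0.177) and 0.09 (Tgfbr1, SE 0.137), and the binders were at 0.30 (Ltbp1, SE 0.185) and -0.12 (Ltbp2, SE 0.329). The Ltbp2 estimate rests on 8 to 17 counts per library.

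At 3 months, with METTL5 lost in cardiomyocytes only, again no member passed, where the background was 0.0732% of 16391 genes. The count was 0 with DESeq2 as well, against 0.354% of genes, no member had an unadjusted p under 0.05 (7.05% of genes did), and no member had groups without overlap (4.23% of genes did).

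Tgfb2 was at 6.67, 9.54, 9.10 and 9.83 CPM in the 3-month controls and at 10.7, 16.8, 9.75 and 8.998 CPM in METTL5-cKO, so that the groups overlapped, with a log2 fold change of 0.40 (SE 0.208, adjusted p = 0.796). Inhba was at 0.653, 0.984, 0.991 and 0.546 CPM in controls and at 1.54, 1.03, 0.944 and 1.14 CPM in METTL5-cKO. This was the smallest p of the 9 (log2 fold change 0.55, SE 0.259, unadjusted p = 0.0591, adjusted p = 0.727), on 12 to 34 counts per library. The other members had log2 fold changes between -0.15 (Tgfb1, SE 0.0996) and 0.48 (Ltbp2, SE 0.449).

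Ltbp1 varied more between libraries than between genotypes at this age. It was at 35.4 CPM in control library 1 and at 38.1 CPM in METTL5-cKO library 1, against 21.0 to 21.3 CPM and 24.8 to 26.2 CPM in the other libraries of each group. Tgfbr2 had its lowest level of each group in the same 2 libraries, 29.8 and 29.9 CPM, against 34.2 to 38.9 CPM and 35.5 to 39.8 CPM in the others.

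**Figure D2:**
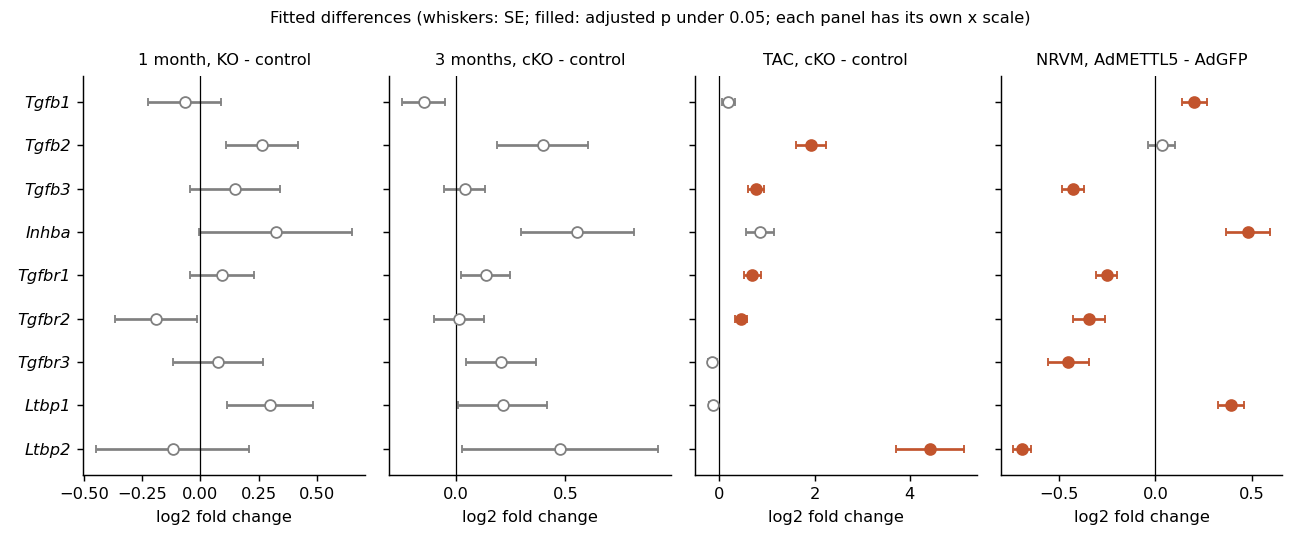
Fitted log2 fold change (x axis, each panel on its own scale) of the 9 members (y axis) in the 4 comparisons. Whiskers are standard errors and filled points have an adjusted p under 0.05: none at 1 and 3 months, 5 after TAC, all higher, and 8 in NRVMs, of which 3 were higher and 5 lower.

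After TAC, 5 of the 9 members were higher in METTL5-cKO than in control hearts and none was lower: the ligands Tgfb2 and Tgfb3, the receptors Tgfbr1 and Tgfbr2, and the binder Ltbp2. Fitted folds ran from 1.37 (Tgfbr2) to 21.5 (Ltbp2). Over the 16340 genes tested, 12.7% passed, 6.57% higher and 6.1% lower. The median log2 fold change was 0.70 over the members and -0.0035 over all genes tested. With an absolute log2 fold change over 1 required as well, 2 members passed (Tgfb2 and Ltbp2), against 2.9% of genes. The groups did not overlap for 3 members (Tgfb2, Tgfb3 and Ltbp2), against 18.6% of genes. In whole heart tissue, a change in the number of cells of a type and a change in RNA per cell, up or down, cannot be told apart.

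Tgfb2, the isoform with the strongest dependence on betaglycan, was at 9.87, 10.99, 9.05 and 9.85 CPM in TAC control libraries 1 to 4 and at 63.1, 39.9, 29.8 and 18.3 CPM in METTL5-cKO TAC libraries 1 to 4. Every METTL5-cKO TAC library lay above every control, and library 4 came nearest to them. The log2 fold change was 1.93 (SE 0.320, adjusted p = 0.0107), a fold of 3.80, and the exact two-sided permutation test gave p = 0.0286, the smallest that 4 against 4 libraries allow.

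Tgfb3 was at 13.4, 11.7, 14.2 and 11.4 CPM in TAC controls and at 28.7, 22.8, 19.6 and 15.7 CPM in METTL5-cKO TAC hearts. The groups did not overlap, and library 4 again lay nearest to the controls. The log2 fold change was 0.78 (SE 0.170, adjusted p = 0.0217; exact permutation p = 0.0286).

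Inhba was at 1.34, 1.26, 1.40 and 1.55 CPM in controls and at 2.89, 3.74, 2.22 and 1.20 CPM in METTL5-cKO TAC hearts. Libraries 1 to 3 were above all controls and library 4 was below them all. The log2 fold change of 0.86 (SE 0.300) missed the threshold (adjusted p = 0.0876), and without library 4 it was 1.09 with an adjusted p of 0.00552. Inhba had 24 to 82 counts per library.

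Tgfb1 was at 29.5, 26.6, 32.5 and 26.7 CPM in controls and at 39.2, 37.5, 24.6 and 30.6 CPM in METTL5-cKO TAC hearts. The groups overlapped, and the log2 fold change of 0.19 (SE 0.144, adjusted p = 0.397) was within the spread of the libraries.

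Of the receptors, Tgfbr1, the type I receptor kinase that phosphorylates SMAD2 and SMAD3, was at 15.2, 15.7, 13.2 and 12.1 CPM in controls and at 29.0, 23.1, 23.9 and 15.03 CPM in METTL5-cKO TAC hearts. Only library 4 fell among the controls. The log2 fold change was 0.70 (SE 0.180, adjusted p = 0.0359; exact permutation p = 0.0857).

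Tgfbr2 was at 39.1, 35.2, 37.5 and 33.0 CPM in controls and at 61.3, 49.4, 48.6 and 38.7 CPM in METTL5-cKO TAC hearts. Library 4 again lay within the control range. The log2 fold change was 0.45 (SE 0.129, adjusted p = 0.0483; exact permutation p = 0.0571). Tgfbr3 was at 19.3 to 24.4 CPM in controls and at 18.4 to 21.1 CPM in METTL5-cKO TAC hearts (log2 fold change -0.15, SE 0.0931, adjusted p = 0.310).

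Of the binders, Ltbp2, which attaches to fibrillin microfibrils but, unlike its relatives, is not known as a carrier of latent TGF-beta, was at 3.92, 2.58, 1.98 and 2.43 CPM in controls and at 96.1, 69.8, 62.6 and 6.29 CPM in METTL5-cKO TAC hearts. In raw counts these are 38 to 79 and 126 to 2192 per library. Libraries 1 to 3 were far above the controls, and library 4 was above the highest control but far below the rest of its group. The log2 fold change was 4.43 (SE 0.707, adjusted p = 0.00963; exact permutation p = 0.0286). Ltbp1, the classic carrier of the latent complex, was at 21.96 to 24.4 CPM in controls and at 18.9 to 23.1 CPM in METTL5-cKO TAC hearts (log2 fold change -0.13, SE 0.0854, adjusted p = 0.344).

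Single libraries decided some of these calls. Tgfb2 and Ltbp2 kept theirs whichever of the 8 libraries was left out (adjusted p between 5.03e-04 and 0.0421 for Tgfb2, and between 3.91e-05 and 0.0410 for Ltbp2). Tgfbr1 and Tgfbr2 lost theirs in 7 of the 8 fits and kept it only without METTL5-cKO library 4 (adjusted p up to 0.104 and 0.129). Tgfb3 lost its call without control library 2, control library 4 or METTL5-cKO library 2 (adjusted p up to 0.0716). Library 4 had the lowest level among METTL5-cKO TAC libraries for 6 members (Tgfb2, Tgfb3, Inhba, Tgfbr1, Tgfbr2 and Ltbp2). Without it, 6 members were called, all higher, where 23.4% of genes passed. Without a filter on low counts 3 members were called, where 3.5% of genes passed.

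**Figure D3:**
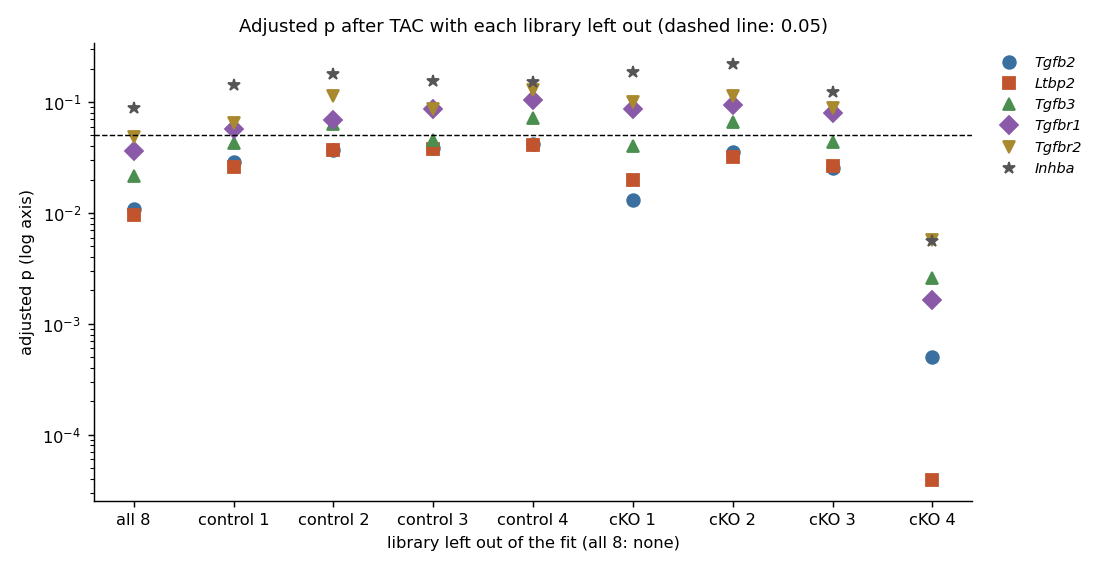
Adjusted p (y axis, log scale) of 6 members after TAC in the fit of all 8 libraries and with each library left out in turn (x axis), with a dashed line at 0.05. Tgfb2 and Ltbp2 stay under the line throughout, Tgfbr1 and Tgfbr2 rise above it in 7 of 8 fits, and Inhba goes under it only without METTL5-cKO library 4.

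Whether the genotype difference after TAC exceeded that at 3 months was tested with an interaction term over the 16 libraries of both tables. No member passed, where the background was 0.00586% of 17070 genes. 5 members had an unadjusted p under 0.05, against 11.8% of all genes: Ltbp2 (difference of log2 fold changes 3.97, SE 1.00, adjusted p = 0.149), Tgfb2 (1.55, SE 0.414, adjusted p = 0.160), Tgfb3 (0.75, SE 0.206, adjusted p = 0.164), Tgfbr1 (0.58, SE 0.225, adjusted p = 0.326) and Tgfbr2 (0.46, SE 0.182, adjusted p = 0.343). DESeq2 called 2 of them, Tgfb2 (adjusted p = 0.0287) and Ltbp2 (adjusted p = 0.00588), against 0.711% of the 32497 genes to which it gave a p. It was run without the filter on low counts, so this share is over more genes than the 17070 of edgeR. Without METTL5-cKO TAC library 4, edgeR called 4 members and 3.91% of genes. TAC and the table itself cannot be told apart in this term.

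Marker genes of other cells moved with these differences. The 10 fibroblast markers summed to 1131 to 1281 CPM in TAC controls and to 2612, 1837, 1818 and 1434 CPM in METTL5-cKO TAC libraries 1 to 4, with 6 of the 10 called higher. That order from library 1 to library 4 is also the order of Tgfb2, Tgfb3, Tgfbr2 and Ltbp2. Tgfbr1, also called after TAC, did not follow it (29.0, 23.1, 23.9 and 15.03 CPM), nor did Tgfb1, Inhba, Tgfbr3 and Ltbp1. The macrophage marker sum had the order of the fibroblast sum (465, 412, 373 and 360 CPM). The 10 macrophage markers summed to 265 to 349 CPM and 360 to 465 CPM (3 higher), the cardiomyocyte markers to 53105 to 58270 CPM and 38361 to 49163 CPM (4 lower), the endothelial markers to 775 to 924 CPM and 550 to 711 CPM (5 lower), and the smooth muscle and pericyte markers to 711 to 778 CPM and 576 to 721 CPM (1 higher, 2 lower). No marker was at 0. At 3 months, where no member was called, fibroblast markers summed to 917 to 1139 CPM in controls and 1186 to 1413 CPM in METTL5-cKO. In the same order, cardiomyocyte sums were 53794 to 56762 CPM and 47164 to 51968 CPM, without overlap. Macrophage sums were 178 to 233 CPM and 220 to 316 CPM, and endothelial sums 630 to 964 CPM and 509 to 786 CPM. Smooth muscle and pericyte sums were 642 to 763 CPM and 618 to 764 CPM. No marker of these lists was called at 3 months. The part of cell composition in the members' differences was not tested.

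The rest of the pathway was read from 97 further genes in 5 lists. After TAC, 85 were tested, of which 30 were higher and 2 lower, so that 32 of 85 passed where 12.7% of all genes did. The median log2 fold change was 0.25 over these genes. The number called fell to 13 without control library 4, where 2.88% of all genes passed, and to 19 without METTL5-cKO library 2, where 3.24% passed. Without METTL5-cKO library 4 it was 41 higher and 5 lower, where 23.4% passed. At 1 and 3 months none of 84 passed with edgeR. Of these, 6 and 16 had an unadjusted p under 0.05, against 4.57% and 7.05% of all genes. DESeq2 called 0 of 93 and 3 of 95, against 0.0421% and 0.354% of the 30859 and 30467 genes to which it gave a p. The interaction term called none of 87 with edgeR, of which 29 had an unadjusted p under 0.05, against 11.8% of genes, and DESeq2 called 13 of 95, against 0.711% of genes. These DESeq2 shares are over genes without the filter on low counts.

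Of 21 intracellular transducers tested after TAC, 1 was higher, Tgif1, a corepressor of SMAD-driven transcription, with a log2 fold change of 0.53 (SE 0.150, adjusted p = 0.0476). No SMAD gene was called, and the median of the list was 0.06. Of the list 4.76% was called, against 12.7% of all genes. Of 12 accessory and other superfamily receptors, only Tgfbr3l was called (8.33%), with a log2 fold change of -0.98 (SE 0.233, adjusted p = 0.0286).

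Of 19 genes for latency, storage and activation, 8 were higher and 1 lower (47.4% called, against 12.7% of all genes), with a median log2 fold change of 0.48. Tgm2, the transglutaminase that cross-links the latent complex to matrix, was higher by a log2 fold change of 0.79 (SE 0.0943, adjusted p = 0.00470). Thbs1, which encodes the latent TGF-beta activator thrombospondin-1, was higher by 1.76 (SE 0.311), Ltbp3 by 0.94 (SE 0.174) and the matrix protease Mmp2 by 0.98 (SE 0.190), with adjusted p between 0.0130 and 0.0156. The lower gene was Itgb6, a subunit of an activating integrin (log2 fold change -0.97, SE 0.266, adjusted p = 0.0432), named after its value was seen.

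Among activin relatives and secreted antagonists, 7 of 11 were higher and none lower (63.6% called, against 12.7% of all genes), with a median of 1.15. Fstl3, a follistatin-like antagonist of activin, was higher by a log2 fold change of 1.56 (SE 0.189, adjusted p = 0.00481). Gdf15, a stress-induced cytokine of the superfamily, was higher by 3.91 (SE 0.552), the matrix proteoglycan Bgn by 1.70 (SE 0.290) and Fstl1 by 1.65 (SE 0.299), with adjusted p between 0.00716 and 0.0136.

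Of 22 target genes tested, 14 were higher and none lower (63.6% called, against 12.7% of all genes), with a median of 1.02. Ccn2, a classic response gene of TGF-beta and of the Hippo pathway, was higher by a log2 fold change of 2.65 (SE 0.332, adjusted p = 0.00546). The metalloproteinase inhibitor gene Timp1 was higher by 2.93 (SE 0.433, adjusted p = 0.00782) and the myofibroblast matrix gene Postn by 3.64 (SE 0.569, adjusted p = 0.00948). The paper had reported Col1a1, Col3a1, Fn1 and Postn of this list as raised in METTL5-cKO hearts after TAC by RT-PCR. The lists were chosen with earlier results of these data known, so the count is not independent of them. Col1a1, Col1a2 and Dcn of these lists are also among the fibroblast markers and Acta2 and Tagln among the smooth muscle markers, and many target genes have regulators besides TGF-beta.

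**Figure D4:**
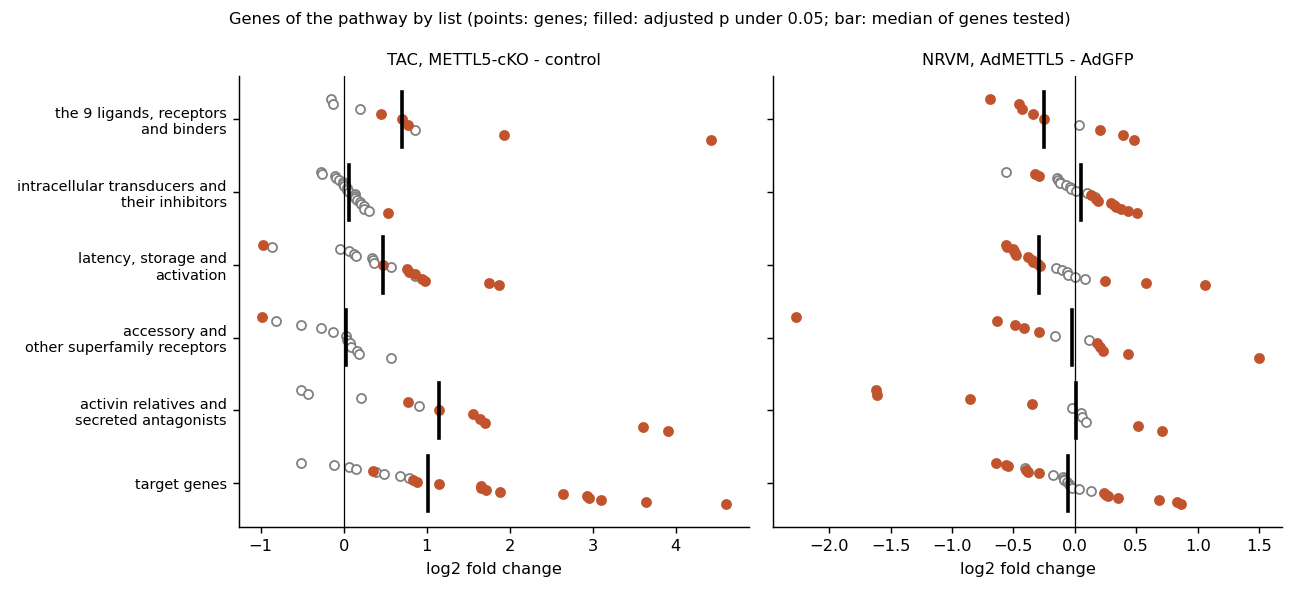
Log2 fold change (x axis) of each gene tested (points) in the 9 members and 5 pathway lists (y axis), after TAC (left) and in NRVMs (right), filled at an adjusted p under 0.05, with bars at the median. After TAC the medians of the members, of activin relatives and antagonists and of target genes are 0.70, 1.15 and 1.02, and that of the transducers is 0.06.

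Likeness between genes was measured as the Pearson r of log2 CPM over the 24 heart libraries after subtraction of each group's mean, against 14494 genes, and is given as a description. All libraries share the TMM scaling, and within-group spread differs between groups: it was widest in METTL5-cKO TAC for Tgfb2, Tgfb3, Inhba, Tgfbr1 and Ltbp2 and in other groups for Tgfb1, Tgfbr2, Tgfbr3 and Ltbp1. Ltbp2 was most like Rtn4 (r = 0.94), Actr2 and Plcg2 (both 0.91). Tgfb3 was most like Serpinf1, Islr (both 0.91) and Ttc9 (0.90), and Tgfbr2 like Serpina3n (0.92), Csf2rb (0.91) and Lox (0.89). Tgfb2 was most like Nmrk2 (0.81), Map6 (0.78) and Cdon (0.77), and Tgfbr1 like the NADPH oxidase gene Nox4 (0.81), Ace (0.79) and Rlf (0.78). Among the members themselves the highest values were 0.66 for Tgfb3 with Inhba, 0.64 for Tgfb2 with Tgfbr2 and 0.62 for Ltbp2 with each of Tgfbr1 and Tgfb2, and the lowest was -0.76 for Tgfbr2 with Ltbp1.

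In PE-treated NRVMs, AdMETTL5 moved 8 of the 9 members, none by more than a log2 fold change of 1. The ligands Tgfb1 and Inhba and the binder Ltbp1 were higher, and Tgfb3, all 3 receptors and Ltbp2 were lower. Here 52.8% of 15041 genes passed, 27.1% higher and 25.7% lower, so that a call was common in this table. With the fold over 1 required, 0 members and 5.85% of genes passed. DESeq2 also called 3 higher and 5 lower, against 38.2% of the 20768 genes to which it gave a p. It called about as many genes as edgeR (7942 and 7949), over a larger number of genes. The groups did not overlap for 8 members, against 48.4% of genes, and each of these 8 had an exact two-sided permutation p of 0.0286. The median log2 fold change was -0.25 over the members.

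Among the ligands, Tgfb3 was at 225, 229, 201 and 206 CPM in AdGFP libraries 1 to 4 and at 157, 151, 159 and 173 CPM with AdMETTL5, all below the AdGFP range (log2 fold change -0.43, SE 0.0574, adjusted p = 6.24e-05). Inhba was at 19.2, 26.5, 16.9 and 19.6 CPM and at 29.8, 28.1, 29.7 and 26.8 CPM, with the highest AdGFP library just under the lowest AdMETTL5 library (log2 fold change 0.48, SE 0.113, adjusted p = 0.00363). Tgfb1 was at 121, 118, 110 and 121 CPM and at 149, 141, 123 and 126 CPM (log2 fold change 0.20, SE 0.0633, adjusted p = 0.0182). The Tgfb1 call was lost without AdGFP library 3, AdMETTL5 library 1 or AdMETTL5 library 2 (adjusted p up to 0.0619).

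Tgfb2 was the member not called in these cells, at 438, 451, 361 and 377 CPM with AdGFP and at 421, 422, 429 and 393 CPM with AdMETTL5. The groups overlapped, and the log2 fold change was 0.03 (SE 0.0703, adjusted p = 0.732).

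Of the receptors, Tgfbr1 was at 36.1 to 40.0 CPM with AdGFP and at 31.0 to 33.3 CPM with AdMETTL5 (log2 fold change -0.25, SE 0.0531, adjusted p = 0.00169). Tgfbr2 was at 48.8 to 62.9 CPM and at 39.9 to 47.1 CPM (log2 fold change -0.34, SE 0.0826, adjusted p = 0.00414). Tgfbr3 was at 72.2 to 99.7 CPM and at 54.8 to 69.5 CPM (log2 fold change -0.45, SE 0.107, adjusted p = 0.00361). All 3 receptor genes were thus lower without overlap, with fitted folds of 0.840, 0.789 and 0.732.

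The binders moved in opposite directions. Ltbp2 was at 606, 642, 597 and 594 CPM with AdGFP and at 380, 362, 375 and 397 CPM with AdMETTL5, a fold of 0.621 (log2 fold change -0.69, SE 0.0467, adjusted p = 2.76e-07). Ltbp1 was at 99.7, 111, 91.0 and 90.2 CPM and at 128, 126, 135 and 125 CPM (log2 fold change 0.39, SE 0.0649, adjusted p = 3.16e-04).

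Scaling by library size alone moved the median log2 fold change of all genes by 0.14 in NRVMs and by 0.15 after TAC. In NRVMs, where 5872 of all genes were then higher and 2343 lower (54.6% called), it gave 4 members higher and 3 lower, with Tgfb2 called at 0.17 and Tgfbr1 (-0.12) and Tgfbr2 (-0.21) no longer called. The 6 other members called in NRVMs kept their call and direction. After TAC, where the split of all genes went from 1074 higher and 997 lower to 2060 higher and 524 lower (15.8% called), the same 5 members were called higher under that scaling, and Ltbp1 went from -0.13 to 0.02.

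**Figure D5:**
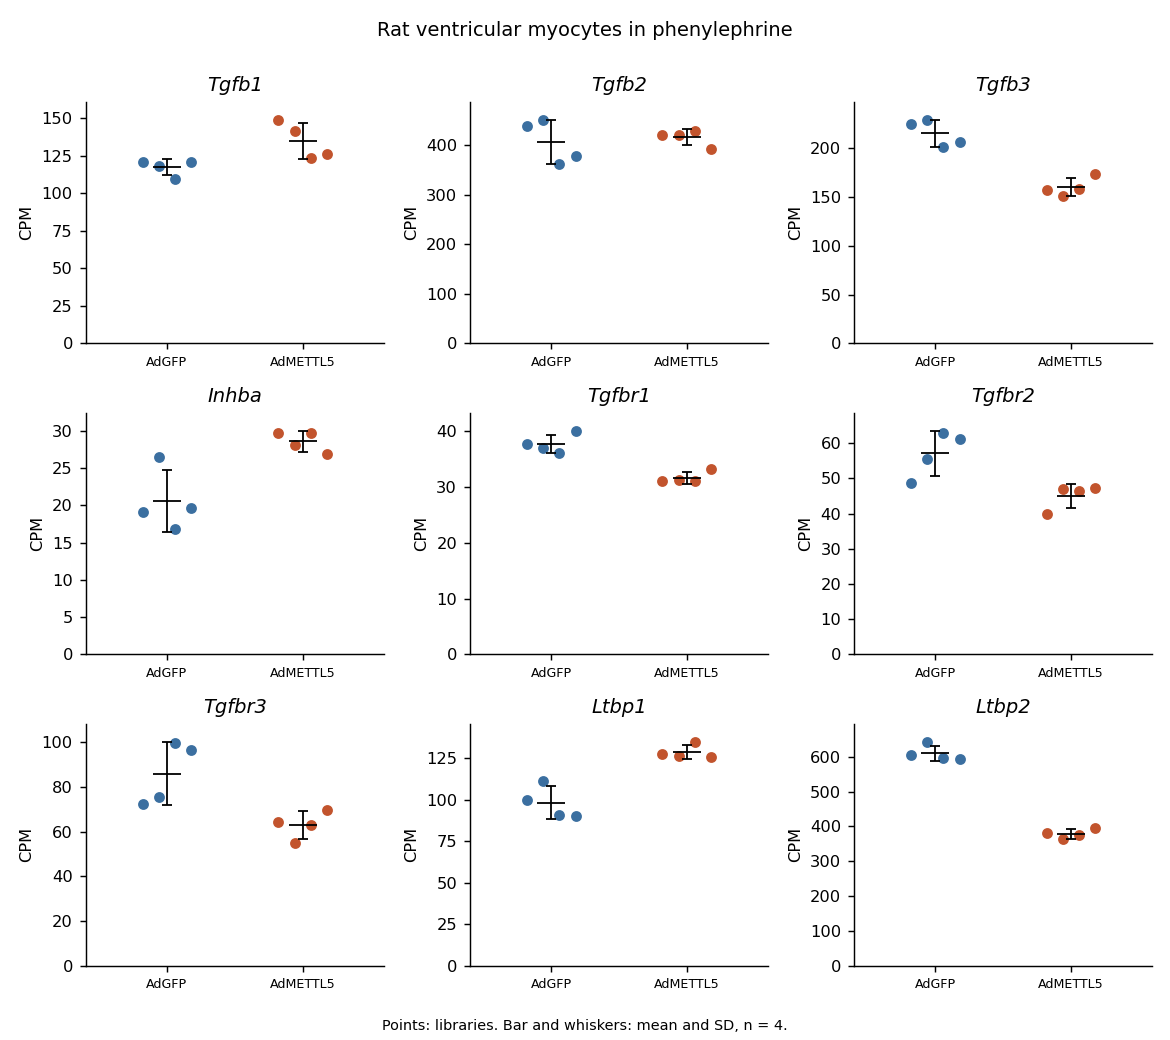
CPM (y axis, linear, from 0) of the 9 members in PE-treated NRVMs with AdGFP or AdMETTL5 (x axis). Points are libraries, and bars and whiskers are the mean and SD of 4 libraries. The groups are apart for every member except Tgfb2, where AdGFP spans 361 to 451 CPM and AdMETTL5 393 to 429 CPM.

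Marker levels differed between these groups as well. All 9 cardiomyocyte markers tested were lower with AdMETTL5, with sums of 13629 to 15412 CPM against 31649 to 40541 CPM. Of 9 fibroblast markers 7 were lower, with sums of 7285 to 8023 CPM against 8981 to 9484 CPM, so that fibroblast transcripts were present in both groups after pre-plating. Macrophage marker sums were 65.0 to 78.2 CPM against 93.3 to 110 CPM, with up to 4 markers at 0, and endothelial sums 60.7 to 65.1 CPM against 48.0 to 51.2 CPM, with up to 2 at 0. Of the 10 smooth muscle and pericyte markers 3 were higher and 3 lower. The part of these shifts in the members' differences was not tested.

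Of the further pathway genes, 88 were tested in NRVMs, of which 26 were higher and 28 lower, against 52.8% of all genes called. Library-size scaling gave 32 higher and 23 lower, where all genes went from 4082 higher and 3867 lower to 5872 higher and 2343 lower. Of 20 latency, storage and activation genes, 3 were higher and 11 lower (70% called), with a median log2 fold change of -0.29. Ltbp3 (-0.38, SE 0.0411), Thbs1 (-0.50, SE 0.0549) and Fbn1 (-0.48, SE 0.0657), the fibrillin that anchors the binders, were lower, and the integrin subunit Itgb8 was higher (1.06, SE 0.128), with adjusted p between 1.13e-05 and 7.45e-05.

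Of 22 transducers in NRVMs, 9 were higher and 2 lower, so that 50% were called, against 52.8% of all genes. The smallest adjusted p were those of the SMAD phosphatase Ppm1a (log2 fold change 0.43, SE 0.0430), the SMAD corepressor Ski (0.51, SE 0.0551), the kinase Map3k7 (0.37, SE 0.0510) and Smad1 (0.32, SE 0.0452). Of 12 accessory and other receptors, 5 were higher and 5 lower (83.3% called). Cd109, a TGF-beta co-receptor that restrains signaling, was higher by 1.501 (SE 0.0732) and the BMP receptor Bmpr2 by 0.43 (SE 0.0507), and the type I receptors Acvr1b (-0.63, SE 0.0517) and Bmpr1a (-0.41, SE 0.0561) were lower.

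Of 10 activin relatives and antagonists in NRVMs, 2 were higher and 4 lower (60% called, against 52.8% of all genes). Fstl3 had a log2 fold change of -1.62 (SE 0.0874), the inhibin subunit Inha of -1.61 (SE 0.158), the proteoglycan Fmod of -0.85 (SE 0.0955) and Gdf15 of 0.71 (SE 0.0638). Of 24 target genes, 7 were higher and 6 lower (54.2% called, against 52.8% of all genes). The cell cycle inhibitor Cdkn1a was at 0.83 (SE 0.0631), Postn at -0.55 (SE 0.0494) and Tsc22d1 at -0.64 (SE 0.0594). The adjusted p of these named genes of the transducer, receptor, antagonist and target lists were at most 9.86e-05.

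Set side by side, of the 5 members called after TAC, Tgfb3, Tgfbr1, Tgfbr2 and Ltbp2 were higher in METTL5-cKO hearts after TAC (log2 fold changes 0.78, 0.70, 0.45 and 4.43) and lower with AdMETTL5 in NRVMs (-0.43, -0.25, -0.34 and -0.69). Tgfb2 was higher after TAC (1.93) and within its error in NRVMs (0.03). Of the 4 members not called after TAC, Tgfb1 had 0.19 and 0.20, Inhba 0.86 and 0.48 and Tgfbr3 -0.15 and -0.45, of the same sign in both, and Ltbp1 had -0.13 and 0.39. Over all genes tested, 6.57% were called higher after TAC and 25.7% lower in NRVMs, and the share with both was not computed. With each library left out after TAC, Tgfb3 was called in 5 of 8 fits and Tgfbr1 and Tgfbr2 each in 1. With library-size scaling in NRVMs, Tgfbr1 and Tgfbr2 were not called. The comparisons share no samples, differ in species and in cell makeup, and their difference was not tested.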

How the data were processed

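The authors aligned total-RNA reads with HISAT2 2.0.4 and deposited gene-level estimated counts from StringTie 2.1.4 (GRCm38 for mouse, Rnor_6.0 for rat), with DESeq2 1.4.5 named in the submitters' processing notes. The annotation release and the strandedness of the counting are not given in the sources used here. The deposited expected counts were rounded to whole numbers. Columns were tied to samples or groups by name, libraries of a group being numbered by the number in the column name. In the rat table, 396 rows without a symbol held 0.0087% of counts.

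Each table was fitted as a whole in R 4.3.3 with edgeR 4.0.16 (TMM, filterByExpr with a minimum count of 10, quasi-likelihood test, no covariate), with Benjamini-Hochberg adjustment over all genes tested. A gene was called at an adjusted p under 0.05. DESeq2 1.42.0, other scalings and filters, each library left out and, at 1 month, the replicate number as a block were alternatives. For each member, the difference in mean log2 CPM (prior count 2) was set against all 70 labellings of the libraries (exact permutation test, two-sided, 36 tests in all). The smallest p this allows is 0.0286. Scripts were tested on simulated data. edgeR ran on limma 3.58.1.

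The members, the pathway and marker lists and the motifs were chosen with earlier results of these data known. Named were all members, the 4 called genes of each list with the smallest adjusted p, and the 3 genes most like each member called after TAC with a mean of at least 1 CPM. One gene this rule names is not reported here. No replicate pair agreed within sampling noise (lowest chi-square 2.16 per degree of freedom). Nothing in the labels says how the libraries of a group relate to animals or cultures, so p-values measure the spread between these libraries, which may be technical. Promoters come from RefSeq. Protein sequences and si-METTL5 libraries were not analysed here.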

Additional observations from a re-analysis of the deposited data

Results flagged for a closer look

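Of 72 groups of 4 libraries checked over the 9 members, 7 held a library far from the other 3 by Dixon's criterion, where chance gives about 1 in 20. Ltbp1 accounted for 3 of them: library 1 of the 1-month controls at 12.7 CPM against 21.6 to 23.3 CPM, library 1 of the 3-month controls at 35.4 CPM against 21.0 to 21.3 CPM, and library 1 of the 3-month METTL5-cKO hearts at 38.1 CPM against 24.8 to 26.2 CPM. The 1-month control library 1, whose TMM factor was 1.25, also had the highest Tgfbr2 level of its group, 54.5 CPM against 30.3 to 36.1 CPM.

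Tgfb1 was at 28.7 CPM in library 2 of the 3-month controls, against 23.1 to 23.9 CPM in the others. Tgfb2 was at 12.4 CPM in library 1 of the 1-month METTL5-KO hearts, against 7.96 to 8.56 CPM. In NRVMs with AdMETTL5, Tgfbr1 was at 33.3 CPM in library 4 against 31.0 to 31.1 CPM, and Tgfbr2 was at 39.9 CPM in library 1 against 46.3 to 47.1 CPM. Both lay on the same side of all AdGFP libraries as the rest of their group.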

How the results depend on the processing

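After TAC, the number of members called was 2 with a log2 fold change over 1 required (2.9% of genes) and 3 without a filter on low counts (3.5%). It was 2 to 6 when each library was left out, the 6 being without METTL5-cKO library 4 (23.4%). In NRVMs it was 0 with the fold required, where 5.85% of genes passed. For the interaction it was 2 with DESeq2, where 0.711% of genes were called, and 0 to 4 when each library was left out, the 4 being without METTL5-cKO TAC library 4, where 3.91% were called. The pathway lists gave 3 calls of 95 at 3 months with DESeq2, where 0.354% of genes were called. With the fold required they gave 19 of 85 after TAC, where 2.9% of genes passed. In NRVMs they gave 5 of 88 with the fold, where 5.85% of genes passed. Leaving out each library gave 13 to 46 after TAC. It was 13 without control library 4 (2.88% of genes), 19 without METTL5-cKO library 2 (3.24%) and 46 without METTL5-cKO library 4 (23.4%). Over all genes after TAC, 1074 were higher and 997 lower, against 1460 and 1259 with DESeq2, 641 and 411 without a filter, and 291 and 188 without control library 4.

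Among single members, the sign of Ltbp1 after TAC turned with library-size scaling (0.021). Leaving out 1 library turned the sign of uncalled members: Tgfb1 (-0.18 to 0.085), Tgfbr2 (-0.29 to 0.021), Tgfbr3 (-0.028 to 0.22) and Ltbp2 (-0.35 to 0.081) at 1 month, Tgfbr2 at 3 months (-0.055 to 0.082) and Tgfb2 in NRVMs (-0.024 to 0.083). The causes were not tested. With the replicate block at 1 month, 0 members and 0 pathway genes were called, but the numbers share no stated source: same-numbered libraries had correlations of 0.239, 0.1196, -0.107 and 0.0782 between their deviations from the group means, and for 1 of 4 numbers the best match was its own. No paired analysis was possible for the other tables because their columns could be matched to groups only. Ltbp2 and Inhba in hearts at rest had few counts per library (8 to 50 for Ltbp2, 12 to 34 for Inhba), and the difference detectable at these counts was not tested.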
